A study of Mus musculus with 4 samples.

Results

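The cyclin-dependent kinase (CDK) inhibitors are the 7 genes Cdkn1a, Cdkn1b, Cdkn1c, Cdkn2a, Cdkn2b, Cdkn2c and Cdkn2d, which were taken by their gene name from the annotation of the arrays. They were represented by 12 of 39429 probes. Of these, 9 probes that cover all 7 genes were bright enough to be tested, among 28079 tested probes in all.

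RNA came from the basal part of the organ of Corti, which is the hair cell epithelium of the mouse cochlea, of E18.5 embryos (days of embryonic development) on the NMRI background. Sox2-Tbx2LOF embryos had the genotype Sox2(creERT2);Tbx2(fl/fl), in which a tamoxifen-dependent recombinase made by Sox2-expressing cells deletes the floxed Tbx2 alleles. Control embryos lacked the recombinase, were labelled Tbx2(fl/n.d.), and therefore also carried at least 1 floxed allele. The genotypes thus differed in the creERT2 allele of Sox2 as well as in Tbx2, and the design cannot tell these apart. The pregnant dams received a single oral dose of 4 mg tamoxifen at E16.5, with progesterone per the methods, so that embryos of both genotypes were exposed. By the crosses of the study both genotypes also carried the fluorescent reporter allele R26mTmG. Each of the 4 dual-colour arrays compared a Sox2-Tbx2LOF pool with a control pool of the same sex, and each pool combined the tissue of several embryos. Sox2-Tbx2LOF RNA was labelled with Cy3 (green) on arrays 1 and 3 and with Cy5 (red) on arrays 2 and 4. Arrays 1 and 2 held female pools, and arrays 3 and 4 held male pools. The tissue was a mixture of cells, so fewer cells of a type and less RNA per cell cannot be told apart. Ratios describe the whole pool and set no limit on a change within the cells that lost Tbx2.

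CDK inhibitors bind cyclin-dependent kinases and stop cells from entering S phase. The Cip/Kip proteins p21 (Cdkn1a), p27 (Cdkn1b) and p57 (Cdkn1c) act on several cyclin-kinase complexes. The Ink4 proteins p16 (Cdkn2a), p15 (Cdkn2b), p18 (Cdkn2c) and p19 (Cdkn2d) bind the kinases Cdk4 and Cdk6, and Cdkn2a also encodes Arf, an upstream activator of p53, from a start site of its own. In the cochlea, p27 stops the division of sensory progenitors and keeps supporting cells arrested, while p19 and p21 keep hair cells out of the cell cycle. Tbx2 is a T-box transcription factor that mostly represses, and in fibroblasts and tumour cells it is known to hold down Cdkn1a and Cdkn2a. The comparison therefore asks whether these genes rise in the pooled tissue when Tbx2 is deleted in Sox2-expressing cells.

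The start regions of the genes were read first, because they bear on this question. RefSeq sequences (GRCm38.p6) of 300 bases around a transcript start were at hand for 9 starts of 6 members, all but Cdkn1c. The T-box element AGGTGTGA, searched on both strands, was found at 1 of these 9 starts and in 1.28% of all 32851 start regions. Its inner part GGTGTGA, which every such element contains, was found at the same single start and in 3.98% of all start regions. Only exact matches within the 300 bases were searched, so other forms of the element or sites elsewhere would be missed. The match lies in Cdkn1a at 14 bases from the downstream start, counted from 1 at the first transcribed base, at chr17:29093771-29093800 on the plus strand. It is shown with the element in capitals.

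Cdkn1a, downstream start: cagcagccgagAGGTGTGAgccgccgcggt

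The GC box GGGCGG, searched on both strands, occurred at 7 of the 9 starts of the members and in 35.7% of all start regions. The share of G and C ran from 44.0% to 77.0% in the 9 start regions, beside a median of 52.7% for all. Whether GC boxes were more frequent than in start regions of like GC share was not tested. At the Ink4 locus, which holds Cdkn2a and Cdkn2b, the 100 bases before each of the 3 starts are shown, since the probes of these genes had the lowest ratios. GC boxes are in capitals. The GC box of the p16 start lies at base 24 of the transcript and that of Cdkn2b at base 5, so neither is shown. The 3 stretches lie on the minus strand of GRCm38.p6, at chr4:89294620-89294719 for Arf, at chr4:89282193-89282292 for p16 and at chr4:89311033-89311132 for Cdkn2b.

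Cdkn2a, Arf start: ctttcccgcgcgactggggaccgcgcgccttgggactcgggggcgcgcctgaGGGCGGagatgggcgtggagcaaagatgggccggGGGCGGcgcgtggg
Cdkn2a, p16 start: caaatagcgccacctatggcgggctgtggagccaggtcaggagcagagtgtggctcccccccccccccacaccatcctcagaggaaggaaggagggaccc
Cdkn2b start: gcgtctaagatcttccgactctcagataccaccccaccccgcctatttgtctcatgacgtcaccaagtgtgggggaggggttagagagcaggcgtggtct

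The targeted gene was represented by a single probe. Tbx2 had log2 ratios of Sox2-Tbx2LOF over control of −0.06, −0.24, −0.02 and −0.30 on arrays 1 to 4, a mean of −0.15 ± 0.14 (SD, n = 4), with a limma adjusted p of 0.313. Whether the floxed part of the gene holds this probe was not analysed here. The hair cell markers (7 of 7) and the supporting cell markers (9 of 9) were well above background, whereas Slc26a5, the outer hair cell motor protein, was not. The other 4 markers of the outer hair cell list were tested. Their mean log2 ratios ran from −0.10 to 0.19, 2 higher and 2 lower, and none had a limma adjusted p under 0.05. Among the inner hair cell markers Fgf8 (mean log2 ratio −1.57), Cabp2 (−1.17), Slc17a8 (−0.66) and Otof (−0.40) fell in Sox2-Tbx2LOF pools, with limma adjusted p-values of 2.2e-06, 1.1e-05, 0.00029 and 0.010. The fifth marker of that list, Calb2, was higher on 2 of 4 arrays, and its log2 ratio averaged 0.0056 ± 0.243 (SD, n = 4, limma adjusted p 1.00). Of the supporting cell markers Fgf20 fell (−0.82, limma adjusted p 0.0017) and Hey2 rose (0.29, limma adjusted p 0.041). Otof and Hey2 changed by less than 1.5-fold, the minimum used for calls below, and were not called.

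None of the 9 tested CDK inhibitor probes was called changed between Sox2-Tbx2LOF and control pools. A call needed an adjusted p under 0.05 in limma and a fold of at least 1.5, which 70 of all tested probes met (0.249%). Without the minimum fold 0 of the 9 probes passed, against 0.983% of all tested probes. Significance Analysis of Microarrays (SAM) is the tool named in the methods of the study. A version of its unpaired test was written here, with settings of its own and on the channel levels of this report. This version, called SAM below, also called 0 of the 9. Mean log2 ratios of the 9 probes ranged from −0.19 to 0.15 with a median of −0.03, beside a median of 0.00 for all tested probes and a range of −0.10 to 0.11 from their 5th to their 95th percentile. In the reported fit the 95% limma intervals of the 9 means spanned 0.803-fold to 1.21-fold, and all 9 lay inside 1.5-fold in both directions. The background correction of that fit shrinks the ratios of dim probes, so for these the bound holds only with that correction. The mean log2 ratio of the dim Cdkn2a probe was −0.18 in the reported fit and −0.45 in the ratio of the scanner software. Whether its interval in the scanner ratio stays inside 1.5-fold was not tested.

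At an unadjusted p under 0.05, 4 of the 9 probes passed in limma, against 7.12% of all tested probes. These were the Cdkn2a probe and both Cdkn2b probes, which were lower in Sox2-Tbx2LOF pools, where 3.54% of all tested probes were lower at this p. The Cdkn1c probe was higher, where the share of all tested probes was 3.58%. This count depended on the arrays used. It was 4 without array 1, with Cdkn1a in place of Cdkn2a, 4 without array 2, 2 without array 3 and 0 without array 4. Each of these fits had fewer arrays from which to estimate the spread. Each kept the term for dye, so the array left alone in its dye orientation weighed as much as the pair in the other. Values given below without an array are these dye-adjusted estimates, not plain means of the arrays kept. Groups without overlap between the 4 Sox2-Tbx2LOF and the 4 control levels were found for 1 of the 9 probes, a Cdkn2b probe, and for 2.54% of all tested probes.

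**Figure D1:**
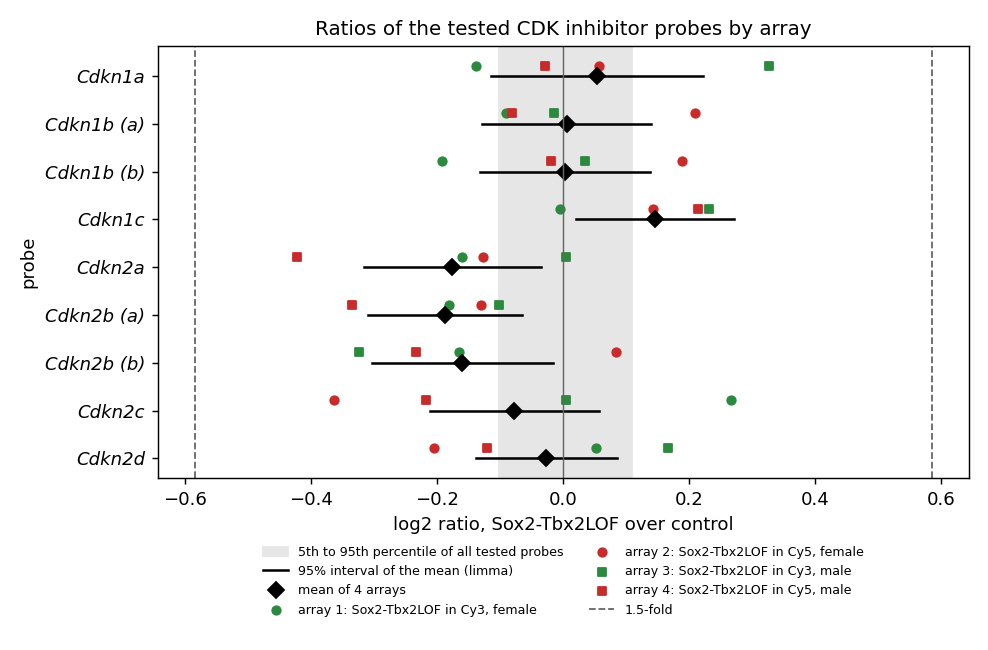
Log2 ratio of Sox2-Tbx2LOF over control (x axis) for the 9 tested CDK inhibitor probes (y axis) on 4 arrays, with circles for female and squares for male pools and green or red for Sox2-Tbx2LOF in Cy3 or Cy5. Diamonds are means, lines are 95% limma intervals, the grey band holds the 5th to 95th percentile of all tested probes (−0.10 to 0.11), and dashed lines mark 1.5-fold; for Cdkn1b, (a) is A_52_P673863 and (b) A_55_P2026562, and for Cdkn2b, (a) is A_55_P1979526 and (b) A_55_P1988183. No interval of the reported fit reaches a dashed line, but the background correction of that fit shrinks the ratios of dim probes such as Cdkn2a. Only the Cdkn1c interval lies wholly above 0, while those of Cdkn2a and both Cdkn2b probes lie below it.

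Of the Cip/Kip genes, Cdkn1a encodes p21, the classical p53 target, and it was the only searched member with the exact T-box element at a start. Its tested probe A_51_P363947 starts at base 1619 of the transcript (mm9 chr17:29237377-29237436). The log2 channel level of Cdkn1a was 11.53, 11.44, 11.68 and 11.54 in the Sox2-Tbx2LOF pools of arrays 1 to 4. In the control pools of the same arrays it was 11.67, 11.38, 11.36 and 11.57. The groups overlapped, and the Sox2-Tbx2LOF pool was higher on arrays 2 and 3 and lower on arrays 1 and 4. The mean log2 ratio of Cdkn1a was 0.05 ± 0.20 (SD, n = 4), with a 95% limma interval from −0.11 to 0.22 (adjusted p 1.00, unadjusted p 0.482). In fold this interval ran from 0.924 to 1.17, so a rise of Cdkn1a above 1.17-fold in the pooled tissue lay outside it. A rise confined to the cells that lost Tbx2 was not measured apart from the other cells of the pool. The dye-adjusted estimate turned to −0.06 without array 3, where the ratio was 0.33, and rose to 0.17 without array 1, where the ratio was −0.14. The remaining Cdkn1a probes A_55_P1976204 and A_55_P1986282 were well above background on 1 and 0 arrays in either genotype, and were not tested.

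Cdkn1b encodes p27, whose withdrawal lets supporting cells divide again. Both of its probes were above background on all 4 arrays. A_55_P2026562 starts at base 2285 of its transcript (mm9 chr6:134875424-134875483) and had log2 ratios of −0.19, 0.19, 0.03 and −0.02. Its mean log2 ratio was 0.0029 ± 0.157 (SD, n = 4), with a 95% limma interval from −0.13 to 0.14. A_52_P673863 starts at base 2626 of another transcript record (mm9 chr6:134873606-134873665) and had log2 ratios of −0.09, 0.21, −0.01 and −0.08. The mean of that probe was 0.0059 ± 0.140 (SD, n = 4), with a 95% limma interval from −0.13 to 0.14. Ratios of either sign occurred at both Cdkn1b probes, and both means were closer to 0 than the median absolute ratio of all tested probes, which was 0.03 on the log2 scale. The probes differed in brightness, with a mean log2 level of 13.9 in both genotypes at A_55_P2026562 and of 7.24 at A_52_P673863. The second is a dim probe, whose ratio the offset shrinks, and carries less weight for Cdkn1b.

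Cdkn1c encodes p57, an imprinted CDK inhibitor of differentiating and embryonic tissues, and it was the member with the highest ratio. Its probe A_51_P339540 starts at base 1335 of the transcript (mm9 chr7:150644753-150644812). The log2 channel level of Cdkn1c was 16.28, 16.37, 16.45 and 16.31 in Sox2-Tbx2LOF pools and 16.29, 16.22, 16.22 and 16.09 in control pools. Levels were higher in the Sox2-Tbx2LOF pool on 3 of 4 arrays and equal to within 0.01 on array 1, and the groups overlapped through the control pool of array 1. The mean log2 ratio was 0.15 ± 0.11 (SD, n = 4), a 1.11-fold difference with a 95% limma interval from 1.01-fold to 1.21-fold. After adjustment it was not significant (unadjusted p 0.0278, adjusted p 0.543). Without array 3 the dye-adjusted log2 ratio of Cdkn1c was 0.09 (limma, unadjusted p 0.193, adjusted p 0.952). The mean log2 ratio of Cdkn1c was 0.07 on the female and 0.22 on the male arrays.

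Markers of mesenchyme were also higher in Sox2-Tbx2LOF pools, on 6 of 7 genes with a median log2 ratio of 0.17, and none of them passed the correction. Col1a1, a fibroblast collagen, had the highest ratio of that list (0.34 ± 0.23, SD, n = 4, limma adjusted p 0.0613), and Tbx18, a T-box factor of the otic mesenchyme, the lowest (−0.05). All 7 were well above background. The summed log2 level of this list was 18.04 to 18.14 in Sox2-Tbx2LOF pools and 17.78 to 18.04 in control pools. Markers of vessels were higher for 5 of 5 genes with a median of 0.12, and their summed log2 level was 13.97 to 14.08 in Sox2-Tbx2LOF and 13.86 to 13.92 in control pools. On array 3 alone, 3 of the 5 vessel genes were lower (median −0.03). Neuron markers were higher for 5 of 6 tested genes (median 0.03) and glia markers for 4 of 5 (0.02). Melanocyte markers were lower for 3 of 4 tested genes (−0.11) and blood markers for 4 of 5 (−0.07). Of all tested probes, 48.1% had a mean below 0. The part of any of these cell types in the Cdkn1c ratio was not tested.

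Of the Ink4 genes, Cdkn2b encodes p15, an inhibitor that responds to TGF-beta, and both of its probes had mean ratios below 0. Probe A_55_P1979526 starts at base 811 of the transcript (mm9 chr4:88952720-88952779). Its log2 channel level was 7.21, 7.30, 7.35 and 7.32 in Sox2-Tbx2LOF pools and 7.39, 7.43, 7.46 and 7.66 in control pools. All 4 Sox2-Tbx2LOF pools were below all 4 control pools at this probe, and the control pool of array 4 was the highest. The mean log2 ratio was −0.19 ± 0.10 (SD, n = 4), lower on 4 of 4 arrays and a 1.14-fold decrease in size, with a 95% limma interval from −0.31 to −0.07. After adjustment it was not significant (unadjusted p 0.0071, adjusted p 0.249). This probe averaged −0.32 on the log2 scale both in the ratio of the scanner software and in the series matrix, with adjusted p-values of 0.135 and 0.544.

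The second Cdkn2b probe, A_55_P1988183, starts at base 1255 of the same transcript (mm9 chr4:88952276-88952335). Its log2 channel level was 9.85, 10.10, 9.97 and 10.07 in Sox2-Tbx2LOF pools and 10.02, 10.02, 10.29 and 10.31 in control pools. The groups overlapped, because array 2 ran the other way with a log2 ratio of 0.08. The mean log2 ratio was −0.16 ± 0.17 (SD, n = 4), lower on 3 of 4 arrays (limma, unadjusted p 0.0333, adjusted p 0.594). Without array 4 the dye-adjusted log2 ratio of this probe was −0.08 (limma, unadjusted p 0.264, adjusted p 0.9998). At this probe the mean was −0.04 on the female and −0.28 on the male arrays. The probes share a transcript and the same pools, so they are not independent measurements of the pools.

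Cdkn2a encodes p16 and Arf, and its transcripts share their later exons. The tested probe A_55_P2008437 starts at base 841 of the transcript (mm9 chr4:88920405-88920464), and its level cannot be divided between the products. The log2 channel level of Cdkn2a was 6.68, 6.80, 6.80 and 6.61 in Sox2-Tbx2LOF pools, where it was well above background on 3 of 4 arrays. It was 6.84, 6.93, 6.80 and 7.04 in control pools, where it was well above background on all 4. The Sox2-Tbx2LOF pool was lower on 3 of 4 arrays, by most on array 4, and the groups overlapped through array 3. The mean log2 ratio was −0.18 ± 0.18 (SD, n = 4), with a 95% limma interval from −0.32 to −0.04 (unadjusted p 0.0201, adjusted p 0.462). Without array 4 the dye-adjusted log2 ratio of Cdkn2a was −0.10 (limma, unadjusted p 0.162, adjusted p 0.941). The size of this ratio moved with the background correction, from −0.18 with an offset of 50 to −0.32 with an offset of 1 and to −0.45 in the ratio of the scanner software, and the adjusted p stayed above 0.1 in all of these. The other Cdkn2a probe, A_55_P2008438, starts at base 703 of the same transcript (mm9 chr4:88920543-88920602) and was not well above background on any array in either genotype.

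**Figure D2:**
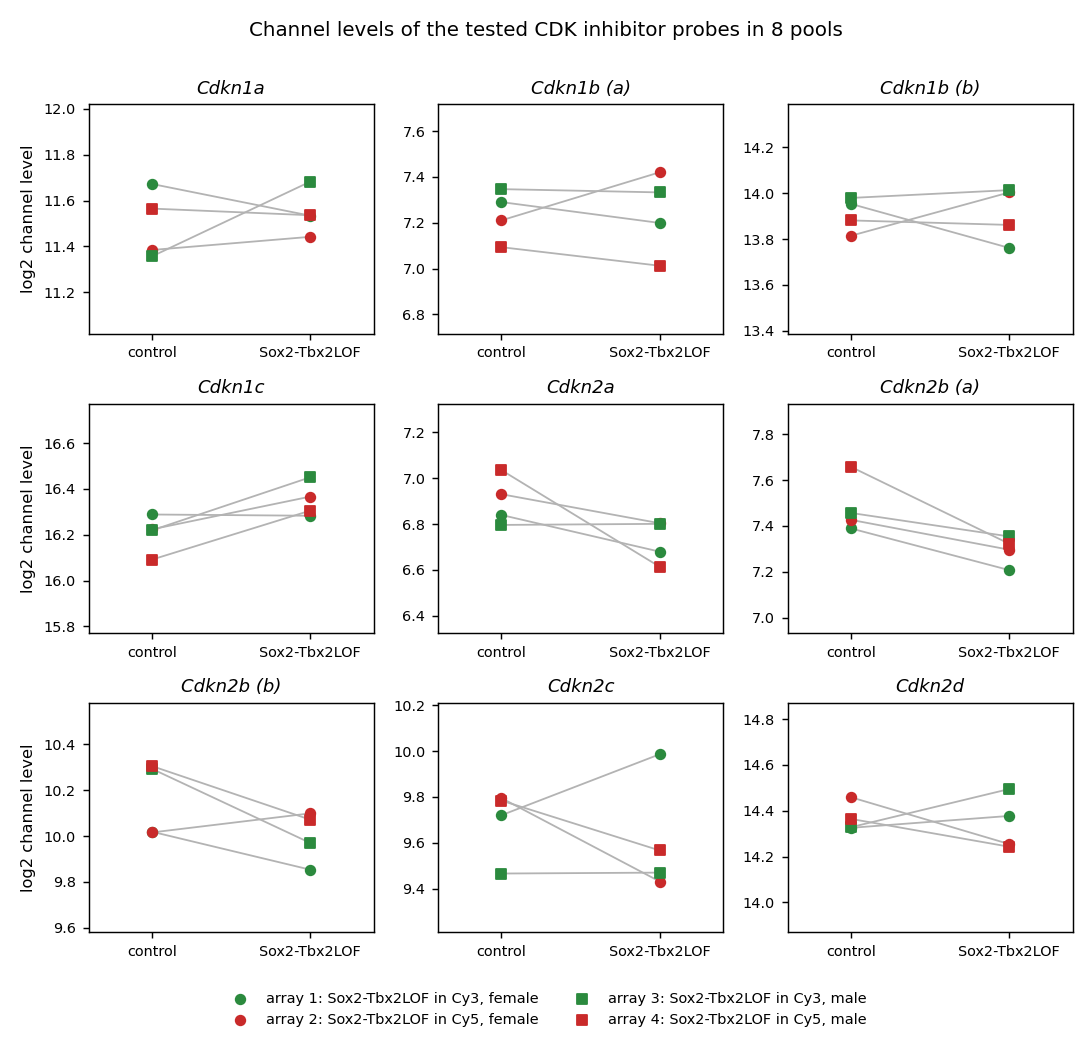
Log2 channel level (y axis, each panel spanning 1 log2 unit) of the 9 tested CDK inhibitor probes in the 4 control and the 4 Sox2-Tbx2LOF pools, with the pools of an array joined by a line and marked by dye and sex as in the legend. Probe letters are those of the plot of ratios by array. The genotypes do not overlap in the panel of Cdkn2b (a), where control pools lie at 7.39 to 7.66 and Sox2-Tbx2LOF pools at 7.21 to 7.35, and overlap in the other 8 panels.

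Cdkn2a and Cdkn2b are neighbours on mouse chromosome 4, and after their values were seen, the ratios of all other tested probes within 1 Mb of them were taken as a description. These 24 probes, 8 of which are for interferon genes by name, had mean log2 ratios from −0.05 (Dmrta1) to 0.10 (Hacd4) with a median of 0.01. The nearest gene with a tested probe and a known product, the methylthioadenosine phosphorylase Mtap, was at −0.03 ± 0.28 (SD, n = 4). None of the 24 was lower on all 4 arrays, and each had a mean above those of the 3 tested Cdkn2a and Cdkn2b probes. Those 3 were the lowest of the members and lay below the 5th percentile of all tested probes (−0.10). Most probes anywhere on the arrays therefore lie above them, and whether the neighbours differ from other probes was not tested.

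**Figure D3:**
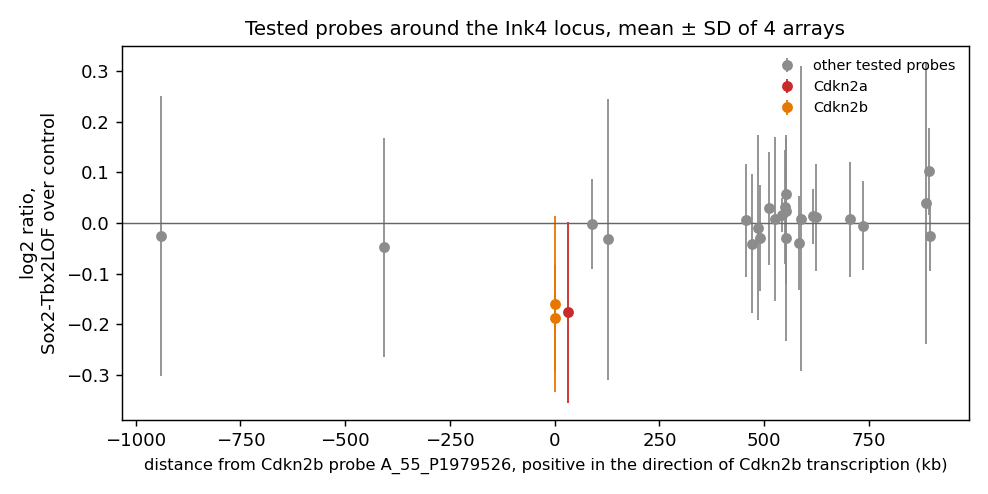
Mean log2 ratio of Sox2-Tbx2LOF over control (y axis, bars are the SD of 4 arrays) of the tested probes within 1 Mb of the Ink4 locus against their distance in kb from Cdkn2b probe A_55_P1979526 (x axis). The 3 probes of Cdkn2a and Cdkn2b lie at −0.19 to −0.16 and the 24 other probes at −0.05 to 0.10.

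Cdkn2c encodes p18, and its probe A_55_P2074796 starts at base 1951 of the transcript (mm9 chr4:109333508-109333567). Its log2 ratios were 0.27, −0.36, 0.00 and −0.22, the widest spread among the members with an SD of 0.27 (n = 4). The signs followed the dye, with a mean of 0.14 where Sox2-Tbx2LOF was in Cy3 and −0.29 where it was in Cy5. With the dye as a term the mean log2 ratio of Cdkn2c was −0.08, with a 95% limma interval from −0.21 to 0.06 (adjusted p 1.00).

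Cdkn2d encodes p19, which keeps hair cells postmitotic after birth, and its probe A_55_P2022251 starts at base 1184 of the transcript (mm9 chr9:21092934-21092993). Its log2 ratios were 0.05, −0.20, 0.17 and −0.12, again with the sign of the dye. The mean was −0.03 ± 0.17 (SD, n = 4), with a 95% limma interval from −0.14 to 0.09 (adjusted p 1.00), so that a 1.5-fold change of Cdkn2d in either direction lay outside the interval.

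The effect on the members was compared between the sexes with a sex by genotype term in limma. No tested probe of a member had an unadjusted p under 0.05 for this term, and the lowest adjusted p among them was 0.9998. The male minus female difference in log2 ratio ran from −0.24 ± 0.11 (limma SE) for Cdkn2b probe A_55_P1988183, with the lowest unadjusted p of 0.0649, to 0.19 ± 0.15 for Cdkn1a. With 2 arrays per sex these differences were measured with little precision.

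The partners of the CDK inhibitors were read from 7 lists of 87 genes, of which 85 had a tested probe, each gene being represented by its brightest tested probe. No gene of these lists was called by limma or SAM, none had an adjusted p under 0.05, and 20 had an unadjusted p under 0.05, which 7.12% of all tested probes had. The median log2 ratio of the 85 genes was −0.05. The highest and lowest values below are named by rule, and none passed the test.

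D-type cyclins and Cdk4/6, the complexes that Ink4 proteins block, had mean log2 ratios below 0 for 5 of 5 genes with a median of −0.06, or for 4 of 5 with median centring, where 48.1% of all tested probes were below 0. Their range ran from Ccnd1 at −0.16 ± 0.12 (SD, n = 4, limma adjusted p 0.266) to Cdk6 at −0.0039. The E-, A- and B-type cyclins with Cdk1 and Cdk2, which Cip/Kip proteins bind, were below 0 for 7 of 7 tested genes with a median of −0.13, from Cdk1, the mitotic kinase (−0.17), to Cdk2 (−0.04). Ccne2 was not tested.

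Proliferation markers were below 0 for 20 of 20 genes with a median log2 ratio of −0.12. They ran from Rrm2, a subunit of ribonucleotide reductase, at −0.24 ± 0.22 (SD, n = 4, limma adjusted p 0.241) to the thymidylate synthase Tyms at −0.03. An unadjusted p under 0.05 was found for 10 of them, all lower, against 3.54% of all tested probes that were lower at this p, and none of the 10 passed the correction. By array, 15, 12, 18 and 19 of the 20 were lower in the Sox2-Tbx2LOF pool, with medians of −0.14, −0.05, −0.22 and −0.16. Their summed log2 level was 17.63 to 17.67 in Sox2-Tbx2LOF pools and 17.68 to 17.89 in control pools. Genes of this list are co-regulated in dividing cells and come from the same pools, so that their number adds no replicates.

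The pocket proteins and E2F factors, through which the cyclin-dependent kinases act, were below 0 for 10 of 13 genes with a median of −0.03, or for 9 of 13 with median centring. The lowest was E2f7, a repressor among the E2F factors (−0.20), and the highest was Rbl2, the pocket protein p130 (0.08). Genes of p27 turnover had a median of 0.01 over 7 genes, which turned to −0.01 with median centring, from Cks2 at −0.21 ± 0.36 (SD, n = 4, limma adjusted p 0.109) to Skp1a, a subunit of the SCF ubiquitin ligase, at 0.05.

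Known regulators of the Ink4/Arf locus had a median log2 ratio of 0.0030 over 17 genes, of which 8 were below 0. Tbx2 itself was the lowest, and Rnf2, a subunit of Polycomb repressive complex 1, the highest at 0.03. Tbx3, the closest relative of Tbx2, had a mean of 0.02 (limma adjusted p 1.00), and Bmi1, the Polycomb protein that represses Cdkn2a, a mean of 0.0067. Genes of p53 and its targets had a median of −0.01 over 16 tested genes, which turned to 0.01 with median centring. They ran from Aen, an apoptosis nuclease (−0.09), to Ccng1, a cyclin induced by p53, at 0.21 ± 0.19 (SD, n = 4, limma adjusted p 0.474), and Eda2r was not tested.

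**Figure D4:**
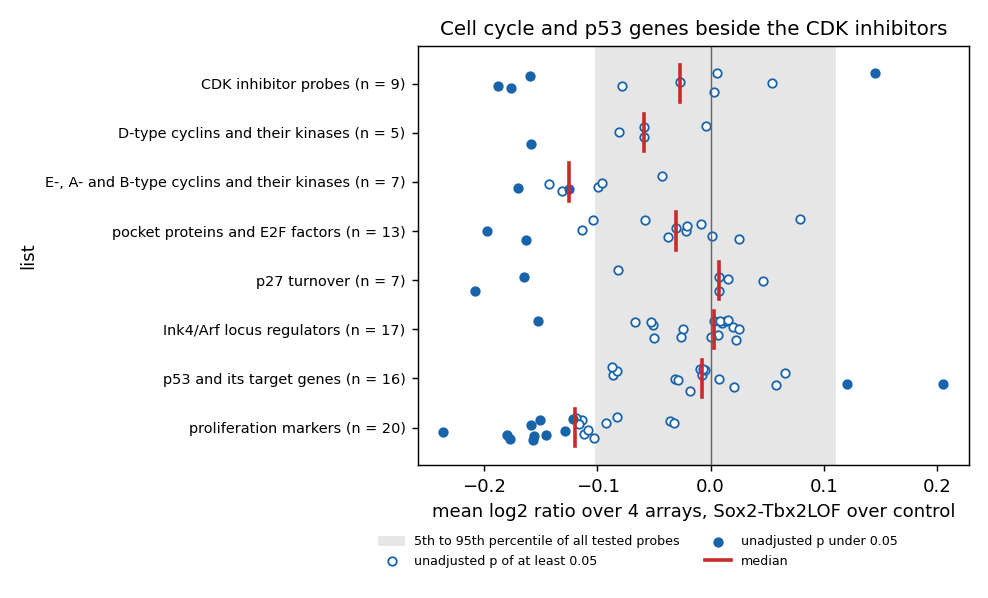
Mean log2 ratio of Sox2-Tbx2LOF over control over 4 arrays (x axis) for the 9 tested CDK inhibitor probes and for the 85 tested genes of the 7 lists (y axis, 1 point per gene or probe, spread vertically for legibility), filled where the unadjusted limma p was under 0.05, with the median of each list in red. All 20 proliferation markers lie below 0, as do the 5 and 7 genes of the cyclin lists, of which Cdk6 at −0.0039 is above 0 with median centring, and none had an adjusted p under 0.05.

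For each member, the gene most like it was found by Pearson's r of channel levels over the 8 pools, after the mean of each dye was taken out. These were the best of all tested probes, so that high values are found for any gene. Cdkn2b (A_55_P1988183) was most like Knstrn, a mitotic spindle protein, with r = 0.988. Cdkn2a was most like the predicted gene Gm5797 (r = 0.985) and Cdkn2c most like the amino acid transporter Slc7a8 (r = 0.989). Cdkn1b was most like the activin receptor Acvr2a (0.997), Cdkn1c most like Cemip2 (0.977), Cdkn1a most like Samd1 (0.979) and Cdkn2d most like Slc3a1 (0.975).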

How the data were processed

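Each deposited scanner file gives the intensity of every spot, read by the authors with Feature Extraction 10.7.3.1 of Agilent and not normalized, and a log10 ratio of red over green signal that the authors' software had corrected for background and dye. The deposited series matrix holds signed fold changes from processing by the authors that is not given in the sources used here, and they correlated with the scanner ratios across tested probes with r of 0.918 to 0.941. Probe positions are those of the files (mm9). Members and gene lists were chosen with earlier results of these data known.

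Intensities were corrected with normexp (limma 3.58.1, R 4.3.3, offset 50) and normalized by loess within arrays, control spots having no weight. Spots with an outlier flag were dropped and the spots of a probe averaged. Channel levels were further scaled by quantiles of the average brightness. A probe was tested when well above background in over 0.5 of its spots on at least 3 of 4 arrays in either genotype. Log2 ratios were tested with limma with a term for dye, which leaves the SD over arrays with dye included, and adjusted by Benjamini-Hochberg. This was preferred to the unpaired SAM of the study's methods because the channels of a spot are hybridised together, and all p-values are two-sided and measure the spread between pools. Loess assumes that most genes do not change, and an offset shrinks the ratios of dim probes. Precision is limited by the 4 arrays, which shared a slide. For each list of cell cycle and p53 genes the text names genes with an adjusted p under 0.05 and the highest and lowest ratio. Of the marker lists the rule names only genes with an adjusted p under 0.05, and Calb2, Slc26a5, Col1a1 and Tbx18 were named outside it. Every member probe is named. Bmi1, Tbx3 and Mtap, and the probes near the Ink4 locus, were named after their values were seen.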

Additional observations from a re-analysis of the deposited data

How the results depend on the processing

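None of the CDK inhibitor probes and none of the cell cycle and p53 genes was called under any alternative run, and no member differed between the sexes after correction. Over the alternatives that gave a p, the lowest adjusted p of a member was 0.107 (Cdkn2a, without array 2). Of all tested probes, 70 were called in the reported fit, 124 with the ratio of the scanner software, 2 with the series matrix and 276 without a minimum fold, and 66 to 106 when 1 array was left out, the highest without array 1. Without pairing the pools by array (no replicate block), limma called 59 probes and SAM 60. Cdkn1c stayed above 0, and Cdkn2a, Cdkn2c and both Cdkn2b probes stayed below 0, in all alternatives run. The sign turned for members with means near 0. Cdkn1b probe A_52_P673863 was at −6.6e-05 without background correction and at −0.020 in the scanner ratio, and from −0.067 to 0.079 when 1 array was left out. Cdkn1b probe A_55_P2026562 was at −0.0165 in the scanner ratio, at −0.0158 in the series matrix, and from −0.054 to 0.059 when 1 array was left out. With 1 array left out, the dye-adjusted estimate of Cdkn1a ran from −0.062 to 0.17 and that of Cdkn2d from −0.056 to 0.0019. The cause was not tested. Of the 20 proliferation markers 19 or 20 stayed below 0 in every alternative. A slide term was not run because all arrays shared a slide. The probe of Cdkn2a was well above background on 3 of 4 arrays in Sox2-Tbx2LOF pools.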
